A study of Mus musculus with 2 samples.

Results

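The Smads are the 8 mammalian proteins that carry signals of the TGF-beta family from receptor kinases at the cell membrane to the nucleus, and their transcripts were followed here in mouse lung cells. The genes were taken by symbol: Smad1, Smad5 and Smad9 of the BMP branch, Smad2 and Smad3 of the TGF-beta and activin branch, the common partner Smad4, and the inhibitory Smad6 and Smad7. All 8 are among the 27998 genes of the deposited matrices. Receptors phosphorylate the branch-specific Smads, which bind Smad4 and act on genes in the nucleus, whereas Smad6 and Smad7 restrain the receptors and are themselves transcribed when the pathway is active. In the endothelium, the receptor ALK1 (gene Acvrl1), with endoglin (Eng) and BMPR2, passes the signal of circulating BMPs to Smad1 and Smad5, and mutations of ACVRL1 cause hereditary hemorrhagic telangiectasia type 2.

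The data were single-cell RNA-seq of lung from a mouse model of that disease, in 1 library labelled KO and 1 labelled WT. Both came from C57BL/6J mice aged 10 to 12 weeks, and lung cells had been sorted for VE-cadherin, a junction protein of endothelium, and against the leukocyte antigen CD45. The labels do not name the knocked-out gene, the promoter of any Cre driver, an inducing agent or the number of animals in a library. With 1 library a group no test between KO and WT is possible, and the 95% intervals given cover counting error only, not the spread between animals or libraries.

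The files held 2196 KO and 3482 WT barcodes with 17864581 and 25667220 UMIs (unique molecular identifiers, each standing for 1 captured transcript). After filtering, 1315 KO cells (median 8646 UMIs) and 2729 WT cells (median 5435 UMIs) remained, of which 517 KO and 1561 WT cells were endothelial-like by marker genes. The label "lung endothelial cells" thus covered part of the cells: 596 KO and 818 WT cells were alveolar type 2 (AT2)-like, the surfactant-making epithelium, and fibroblast-like, smooth muscle-like, pericyte-like and leukocyte-like cells were present too. The libraries shared 12 barcodes, 6 of them among kept cells. In 1 endothelial cluster of 118 cells every cell was from KO. It is called the KO-only cluster here, carried UMIs of all 12 general endothelial markers, met no capillary, arterial, venous or lymphatic name, and was led by Apln, Igfbp3, Peg3, Trp53i11 and F2r. The other endothelial classes, as KO and WT cells, were general capillary (gCap-like, 249 and 974), aerocyte (aCap-like, 69 and 408), arterial-like (24 and 64), venous-like (13 and 53) and an unnamed cluster of low depth with AT2 genes among its leading genes (44 and 62). Acvrl1 stood at 1272 CPM (counts per 1000000 UMIs of the summed cells) in KO gCap-like cells and 1302 CPM in WT gCap-like cells, and at 414 CPM in the KO-only cluster, against 1281 CPM in the other KO endothelial cells. A 3' library can count transcripts that lack a deleted exon, so these levels do not show which cells lost a gene.

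The inhibitory Smads were highest in arterial-like and gCap-like endothelial cells, with at most 79.8 CPM of Smad6 and 458 CPM of Smad7 in any class outside the endothelium. Smad6 (chr9:63953076-64022059, minus strand, GRCm38) is known as the inhibitor with a preference for the BMP branch. Among classes of at least 20 cells, in KO it was highest in arterial-like cells at 746 CPM (614 to 897) and gCap-like cells at 651 CPM (606 to 698), whose intervals overlapped, followed by aCap-like cells at 360 CPM (305 to 421). In WT the order was arterial-like at 1089.9 CPM (978 to 1211), gCap-like at 466 CPM (445 to 489), aCap-like at 398 CPM (373 to 425) and venous-like cells at 311 CPM (256 to 375), where the last pair overlapped. AT2-like cells held the lowest level counted from more than 100 UMIs, at 10.3 CPM (8.46 to 12.4) in KO and 10.9 CPM (9.25 to 12.8) in WT. The classes thus spanned a 99.9-fold range in WT, from arterial-like to AT2-like cells.

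Smad7 blocks both branches at the receptor, and it was spread more widely than the endothelium. Its highest KO levels in classes of at least 20 cells were 726 CPM (596 to 876) in arterial-like and 723 CPM (676 to 773) in gCap-like cells, which did not differ beyond counting error. Alveolar fibroblast-like cells followed at 458 CPM (375 to 553), then aCap-like cells at 343 CPM (290 to 404), whose interval overlapped, and pericyte-like cells at 215 CPM (152 to 295). The 13 KO venous-like cells had 732 CPM (580.5 to 911) of Smad7 and 348 CPM (246 to 477) of Smad6. In WT, arterial-like cells stood alone at 1203 CPM (1086 to 1330), above gCap-like cells at 760.3 CPM (733 to 789) and venous-like cells at 696 CPM (612 to 789), which overlapped. WT aCap-like cells had 393 CPM (368 to 420), alveolar fibroblast-like cells 159 CPM (123 to 201) and smooth muscle-like cells 128 CPM (102 to 159). AT2-like cells were again lowest, at 27.7 CPM in KO and 25.5 CPM in WT.

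**Figure D1:**
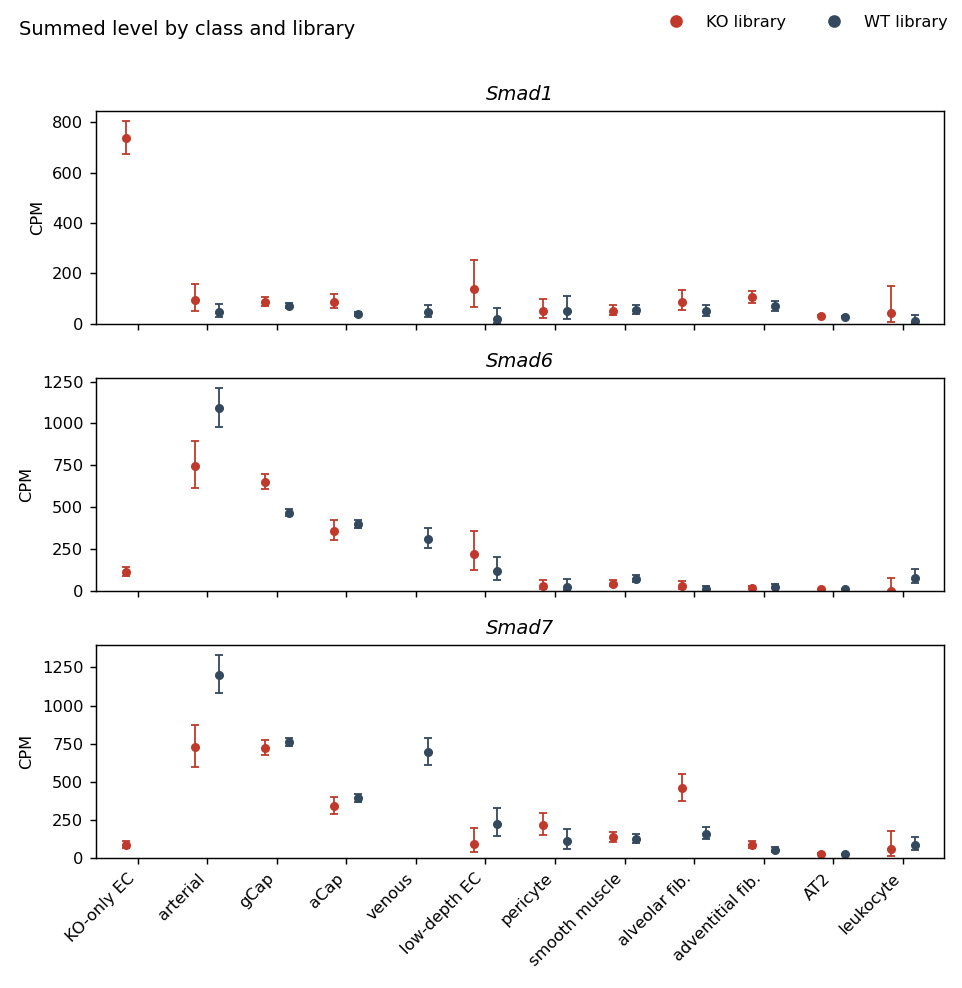
Summed level (CPM) of Smad1, Smad6 and Smad7 in each cell class of at least 20 cells, in the KO library (red) and the WT library (dark blue). Bars are exact Poisson 95% intervals. Smad1 stands out in the KO-only endothelial cluster (KO-only EC) at 737 CPM, while Smad6 and Smad7 lie at 114 and 88.4 CPM there and are highest in arterial-like and gCap-like cells.

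Smad1 (chr8:79338395-79399518, minus strand, GRCm38), a carrier of the BMP signal, was far higher in the KO-only cluster than in any other class, and among the rest it was lower in AT2-like than in gCap-like cells. That cluster had 492 Smad1 UMIs in 118 cells, or 737 CPM (674 to 806). In the other KO classes of at least 20 cells the level lay between 31.7 CPM (28.5 to 35.3) in AT2-like cells and 137 CPM (65.8 to 252) in the low-depth endothelial cluster, which rested on 10 UMIs. No neighbours in that KO order had intervals apart, other than the KO-only cluster and the class next to it. In WT, gCap-like cells were highest at 71.7 CPM (63.4 to 80.8), adventitial fibroblast-like cells had 68.8 CPM (51.8 to 89.5) and aCap-like cells 37.7 CPM (30.2 to 46.6). The gCap-like and aCap-like levels of WT were apart, so among capillary cells of WT Smad1 leaned to the general ones. AT2-like cells, at 27.4 CPM (24.8 to 30.3) in WT, lay apart from gCap-like cells in both libraries.

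The start regions of Smad1 and Smad6 are shown because these genes moved in opposite directions in the KO-only cluster. Both windows are from RefSeq (GRCm38.p6), run from 250 bases before to 50 bases after the annotated start, and read 5′ to 3′ on the gene's minus strand, at chr9:64022010-64022309 for Smad6 and chr8:79399379-79399678 for Smad1. Capitals mark a match to GTCTAGAC, a palindrome of paired Smad boxes.
Smad6: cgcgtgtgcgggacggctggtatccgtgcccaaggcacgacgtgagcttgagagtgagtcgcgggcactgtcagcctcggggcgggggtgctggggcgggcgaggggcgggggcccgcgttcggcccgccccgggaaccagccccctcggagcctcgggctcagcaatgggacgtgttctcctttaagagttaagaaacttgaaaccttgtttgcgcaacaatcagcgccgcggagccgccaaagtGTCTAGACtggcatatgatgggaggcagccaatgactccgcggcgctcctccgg
Smad1: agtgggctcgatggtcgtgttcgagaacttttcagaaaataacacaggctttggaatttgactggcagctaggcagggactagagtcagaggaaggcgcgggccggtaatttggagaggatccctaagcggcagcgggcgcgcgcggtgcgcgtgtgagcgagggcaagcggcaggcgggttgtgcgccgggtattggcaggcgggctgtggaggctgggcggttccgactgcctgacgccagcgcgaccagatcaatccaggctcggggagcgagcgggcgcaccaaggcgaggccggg
The palindrome lay across the Smad6 start, its first base at position -4. It was found in 70 of 32851 such windows of the table (0.213%), and in neither the Smad1 window nor those of Smad3, Smad5 and Smad9. Windows of Smad2, Smad4 and Smad7 are not reported here, so the palindrome is not shown to set Smad6 apart from them. CAGAC (or GTCTG on the other strand), the Smad box, was in 49.6% of all windows and in 1 of the 3 windows of Smad5. GGCGCC, a GC-rich motif bound by Smad1 and Smad5, was in 11.9% of all windows, in the other 2 windows of Smad5 and in that of Smad9. Those 2 Smad5 windows overlap, and the match in them is the same site. The Smad1 and Smad3 windows held none of these motifs. These are matches of letters, searched on both strands with no match overlapping another motif, and are not evidence of binding.

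Smad5 and Smad9, the other BMP-branch Smads, were different in kind. Smad5, which acts beside Smad1, was found in every class, from 13.7 CPM on 1 UMI (low-depth endothelial cluster) to 111 CPM (87.1 to 139) in the KO-only cluster in KO. In WT it ranged from 34.6 CPM (17.2 to 61.8) in arterial-like to 116 CPM (63.2 to 194) in pericyte-like cells, with gCap-like cells at 93.9 CPM (84.4 to 104). The WT arterial-like and gCap-like intervals were apart. Smad9, formerly Smad8, was close to absent: all KO endothelial cells together held 8 UMIs and all WT endothelial cells 21, or 3.04 and 3.07 CPM. The KO-only cluster had 0 Smad9 UMIs, which allows a level of up to 4.50 CPM by the limit of 3 counts (5.53 CPM by the Poisson interval), so at this depth it was not told apart from the rest. Among the other classes Smad9 leaned to fibroblast-like over AT2-like cells in KO, at 10.6 CPM (4.59 to 21.0, 8 UMIs) in adventitial fibroblast-like cells and 1.19 CPM (0.635 to 2.04, 13 UMIs) in AT2-like cells.

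In the TGF-beta and activin branch, Smad3 was nearly absent from gCap-like and aCap-like cells and present in AT2-like and fibroblast-like cells, while Smad2 was found in all of these. Smad2 had 34.5 CPM (21.9 to 51.7) in the KO-only cluster, 37.4 CPM (27.3 to 50.1) in KO gCap-like and 32.3 CPM (26.8 to 38.5) in WT gCap-like cells. AT2-like cells had 30.1 CPM in KO and 28.4 CPM in WT, so Smad2 was near even between epithelium and capillaries. The highest Smad2 level was in leukocyte-like cells, at 81.6 CPM (22.2 to 209) on 4 UMIs in KO and 79.8 CPM (46.5 to 128) on 17 UMIs in WT. Smad3, the partner of Smad2 that binds DNA directly, had 1 UMI in 249 KO gCap-like cells and 6 UMIs in 974 WT gCap-like cells, at 0.832 CPM (0.0211 to 4.64) and 1.59 CPM (0.583 to 3.46). In AT2-like cells it stood at 20.7 CPM (18.1 to 23.6) in KO and 19.5 CPM (17.2 to 21.9) in WT. Adventitial fibroblast-like cells had 23.9 CPM (14.2 to 37.8) in KO and 21.3 CPM (12.4 to 34.0) in WT. Within the WT endothelium, Smad3 was found in venous-like cells at 19.8 CPM (7.96 to 40.8, 7 UMIs) and arterial-like cells at 12.6 CPM (3.42 to 32.2, 4 UMIs). The venous-like interval lay above that of WT gCap-like cells, and the arterial-like one overlapped it. Pericyte-like cells held 0 Smad3 UMIs in both libraries, on 21 KO and 24 WT cells.

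Smad4, the shared partner, was found at a similar level in most classes. In KO it lay between 53.0 CPM (48.8 to 57.5) in AT2-like and 153 CPM (97.1 to 230) in arterial-like cells, leaving aside leukocyte-like cells with 1 UMI. In WT it lay between 51.1 CPM (47.4 to 55.0) in AT2-like and 132 CPM (75.5 to 215) in pericyte-like cells. AT2-like cells were below gCap-like cells in both libraries, at 115 CPM (96.5 to 136) in KO gCap-like and 129 CPM (117 to 141) in WT gCap-like cells.

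**Figure D2:**
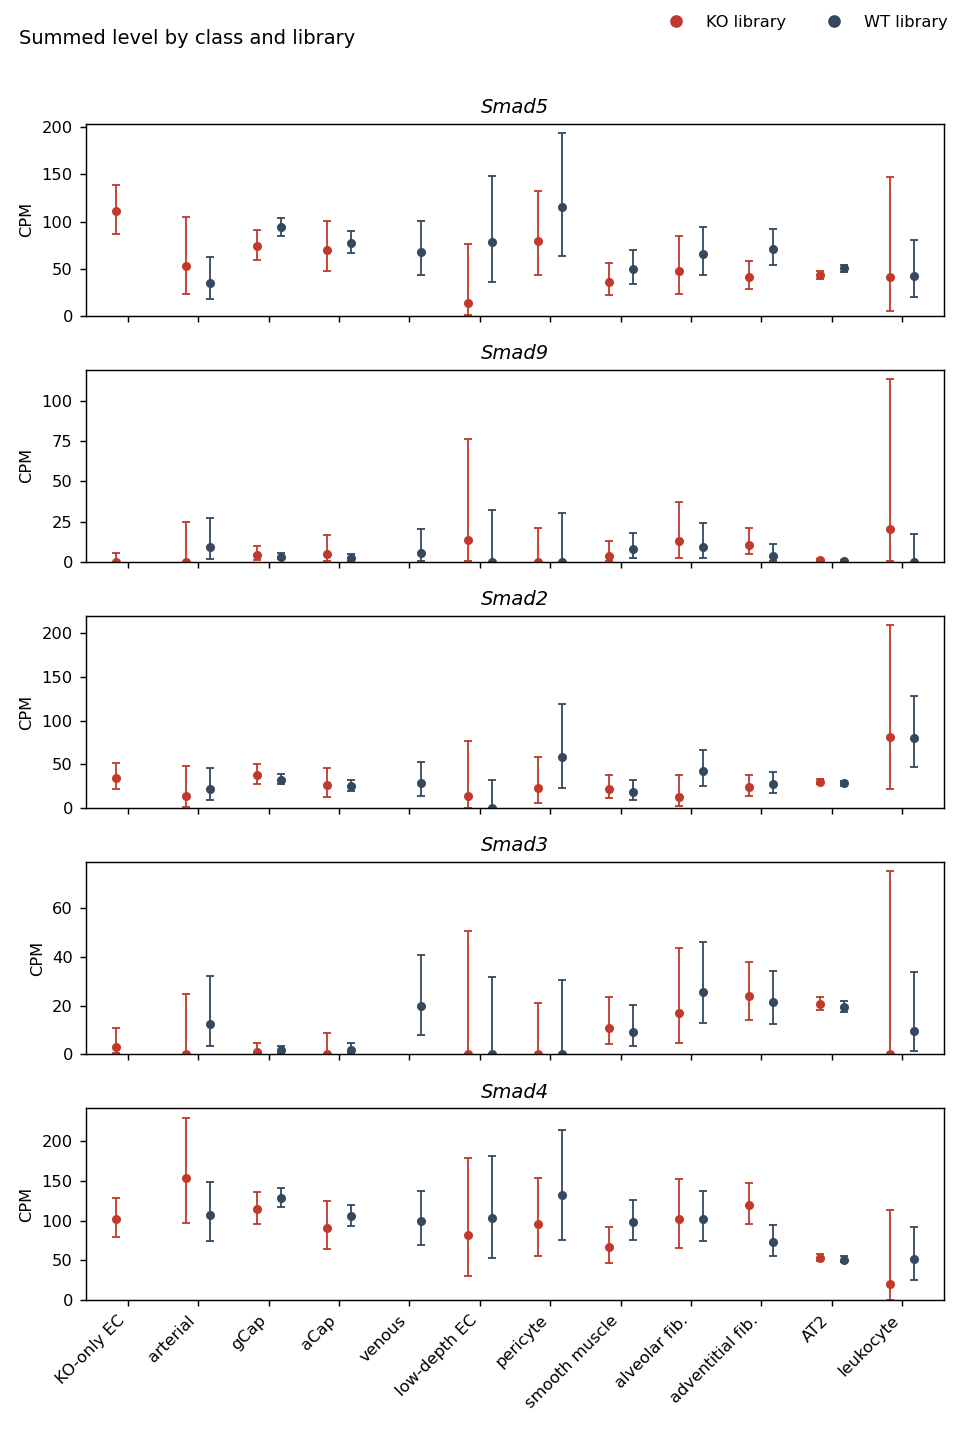
Summed level (CPM) of Smad5, Smad9, Smad2, Smad3 and Smad4 in each cell class of at least 20 cells, in the KO library (red) and the WT library (dark blue), with exact Poisson 95% intervals. Smad3 lies at 20.7 and 19.5 CPM in KO and WT AT2-like cells and near 0 in gCap-like and aCap-like cells, while Smad4 is above 50 CPM in nearly all classes.

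The KO-only cluster had Smad1 high and the inhibitory Smads low against the other KO endothelial cells, while Smad2 and Smad4 stood near equal. Smad1 was at 737 CPM in the cluster and 86.1 CPM (73.6 to 100.1) in the other 399 KO endothelial cells, a ratio of 8.56 (7.17 to 10.3). Smad6 was at 114 CPM (89.7 to 143) in the cluster, against 562 CPM (529 to 596) outside, a ratio of 0.203 (0.159 to 0.256). Smad7 was at 88.4 CPM (67.3 to 114) in the cluster, against 618 CPM (583 to 653) outside, a ratio of 0.143 (0.108 to 0.186). Both inhibitors were thus low in the cluster against its fellow KO endothelial cells, and Smad1 high. Smad5 was at 111 CPM in the cluster and 69.8 CPM (58.6 to 82.5) outside, a ratio of 1.59 (1.18 to 2.12). Smad2 had 34.5 CPM in the cluster and 33.1 CPM outside, a ratio of 1.04 (0.617 to 1.70), and Smad4 had 102 and 113 CPM, a ratio of 0.905 (0.679 to 1.19).

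A gene is counted as past the fold here at a ratio of 1.5 or more either way, with Poisson intervals apart and a mean of at least 10 CPM. By this count 4 of the 6 Smads with enough UMIs were past the fold in the KO-only cluster, Smad1 and Smad5 higher and Smad6 and Smad7 lower, against 15.8% of all 8364 genes so measured. The Smads were left out of the clustering, but genes that vary with them were not, so this contrast describes the cluster and is no test. Set against KO gCap-like and aCap-like cells alone, the ratios were 8.58 for Smad1, 0.198 for Smad6 and 0.142 for Smad7, while that of Smad5 was 1.52 (1.12 to 2.05) with intervals that overlapped, so 3 of 6 were past the fold against 16.6% of all genes. Against WT endothelial cells, with 57.0 CPM of Smad1, 459 CPM of Smad6 and 646 CPM of Smad7, the cluster's ratios were 12.9 (11.3 to 14.8), 0.248 (0.195 to 0.312) and 0.137 (0.104 to 0.177). The Smad5 ratio over WT was 1.32 (1.02 to 1.68), short of the fold, and 3 of 6 Smads were past it against 21.1% of all genes.

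The cluster also differed from the other KO endothelial cells in markers that are not Smads. Haemoglobin and erythroid markers (4 of 5 with a UMI) summed to 65.9 CPM in the cluster, against 8026 CPM outside. Airway epithelial markers (2 of 6 with a UMI, Foxj1 among those at 0) summed to 241 against 1488 CPM. The lymphatic list summed to 4676 against 1763 CPM, of which Lyve1, also found in lung blood capillaries of these libraries, made up 4495 against 1641 CPM, while Mmrn1 and Reln were at 0 and Prox1 at 19.5 against 3.06 CPM. Smooth muscle markers (7 of 8 with a UMI) summed to 246 against 60.1 CPM, with Tagln at 142 against 11.7 CPM and Myh11 at 8.99 against 5.10 CPM. Of the general endothelial markers, Pecam1, Cdh5, Emcn and Esam were at or above the level outside, with Pecam1 at 2335 against 1477 CPM. The others were lower in the cluster, with Calcrl at 408 against 3050 CPM and Tek at 201 against 672 CPM. AT2 markers summed to 2421 against 2473 CPM, and the median depth was 5534 against 4979 UMIs. The part of these differences in the Smad levels was not tested.

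Cell by cell, UMIs of Smad1 with none of either inhibitor were seen more often in the KO-only cluster than in the other endothelial cells. A cell without a UMI of a gene may still hold its transcript, the more so after thinning. Each cell was thinned to 1500 UMIs to equalise depth, which left out 1 cell of the cluster, 48 other KO and 121 WT endothelial cells, and 56 KO and 15 WT AT2-like cells. A Smad1 UMI was then found in 59.0% of the cluster's cells (69 of 117; exact binomial interval 49.5 to 68.0), 9.12% of the other KO and 8.06% of WT endothelial cells. Unthinned, these shares were 93.2%, 29.3% and 20.6%. Smad6 UMIs were in 15.4% of the cluster's cells (9.38 to 23.2), 51.9% of other KO and 43.3% of WT endothelial cells, and unthinned in 40.7%, 74.2% and 66.7%. Smad7 UMIs were in 12.0% (6.70 to 19.3), 56.1% and 58.8%, and unthinned in 30.5%, 79.2% and 82.1%. AT2-like cells, which served as the low end, had Smad1 in 3.70% of KO and 3.74% of WT, Smad6 in 1.48% and 1.74%, and Smad7 in 3.89% and 3.61%, from median depths of 19610.5 and 17666 UMIs before thinning. Unthinned, AT2-like cells had Smad6 in 15.6% of KO and 15.8% of WT, and Smad7 in 34.2% and 33.3%. The cluster's Smad7 share was thus above that of KO AT2-like cells after thinning and below it before, when depths differed. Its Smad6 share was higher both ways. Summed Smad7 was also above that of KO AT2-like cells, at 88.4 CPM (67.3 to 114) in the cluster against 27.7 CPM (24.7 to 31.0).

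Smad1 without Smad6 or Smad7 was seen in 42.7% of the cluster's cells (50 of 117; 33.6 to 52.2), against 2.85% of other KO (10 of 351) and 2.08% of WT endothelial cells (30 of 1440). Smad6 and Smad7 in the same cell were seen in 0.855% of the cluster's cells (1 of 117; 0.0216 to 4.67), against 34.8% of other KO and 28.2% of WT endothelial cells. Cells with either inhibitor made up 26.5% of the cluster, 73.2% of other KO and 74.0% of WT endothelial cells. In AT2-like cells 0 of 540 KO and 0 of 803 WT cells had both inhibitors. Whether these combinations go beyond what the share of each gene alone would give was not tested.

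**Figure D3:**
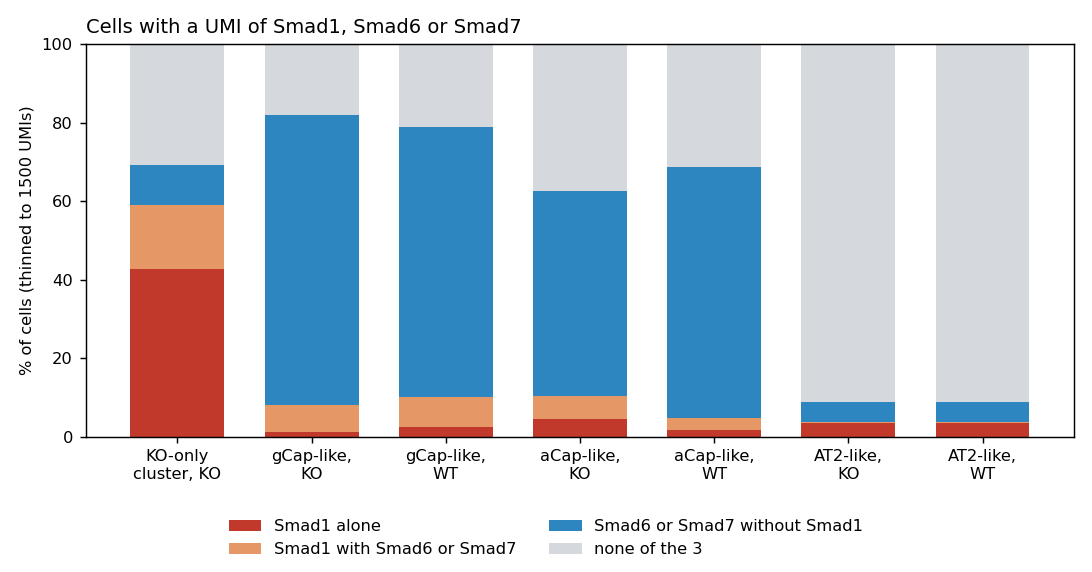
Share of cells (%) with a UMI of Smad1 alone, of Smad1 with Smad6 or Smad7, of Smad6 or Smad7 without Smad1, or of none, after thinning each cell to 1500 UMIs, by class and library. The KO-only cluster holds 42.7% of cells with Smad1 alone, and the blue part (an inhibitor without Smad1) is 10.3% there, against 73.9% in KO and 68.6% in WT gCap-like cells.

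The KO library held cells of both sexes, and the Smad contrast went partly with sex. Cells were typed by UMIs of Xist alone, the transcript of the inactive X chromosome, or of the Y-linked Ddx3y, Uty, Kdm5d and Eif2s3y alone. Among KO endothelial cells 74 were Xist-only and 268 Y-only, while WT had 1396 Xist-only and 0 Y-only endothelial cells. A further 170 KO endothelial cells had neither kind of transcript and 5 had both. Those with neither were 13 of 118 in the KO-only cluster and 157 of 399 outside it. They included 98 of 249 gCap-like cells and 39 of 44 in the low-depth cluster. The levels by sex leave these cells out. The KO-only cluster had 59 Xist-only and 44 Y-only cells, and the other KO endothelial cells 15 Xist-only and 224 Y-only. Xist-only KO cells had 712 CPM of Smad1 (635 to 797) and Y-only KO cells 169 CPM (148 to 191), a ratio of 4.23 (3.56 to 5.02). Smad6 was at 74.5 CPM (51.0 to 105) in Xist-only and 518 CPM (482 to 556) in Y-only KO cells, a ratio of 0.144 (0.0977 to 0.205). Smad7 was at 88.5 CPM (62.6 to 121) and 561 CPM (524 to 601), a ratio of 0.158 (0.111 to 0.218). These 3 of 6 Smads were past the fold, against 10.3% of all genes measured.

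Among Y-only KO cells alone, Smad1 was again higher and Smad6 and Smad7 lower in the cluster than outside. The animals that these cells came from are not known, and the cause was not tested. Smad1 was at 656 CPM (558 to 766) in the 44 cells of the cluster and 72.9 CPM (58.6 to 89.6) in the 224 outside, a ratio of 9.0 (6.90 to 11.8). Smad6 was at 165 CPM (118 to 225) in the cluster, against 587 CPM (545 to 632) outside, a ratio of 0.281 (0.199 to 0.386), and Smad7 at 99.0 CPM (63.4 to 147) against 652 CPM (608 to 699), a ratio of 0.152 (0.0967 to 0.228). These were 3 of 6 Smads, against 13.3% of all genes, and Smad5 was not among them at 1.37 (0.843 to 2.15). Among Xist-only KO cells the picture was different. Smad1 was at 813 CPM (721 to 913) in the 59 cells of the cluster and 257 CPM (157 to 398) in the 15 outside, a ratio of 3.16 (2.01 to 5.25). Smad6 was low in both, at 71.1 CPM (46.0 to 105) in the cluster and 90.1 CPM (36.2 to 186) outside on 7 UMIs, a ratio of 0.788 (0.332 to 2.16). Smad7 was likewise low in both, at 85.3 CPM (57.5 to 122) and 103 CPM (44.5 to 203), a ratio of 0.828 (0.371 to 2.09). Of the 6 Smads 1 was past the fold there, against 4.66% of all genes.

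Low Smad6 and Smad7 were thus also seen in the few Xist-only KO cells placed outside the cluster. Those 15 cells had 90.1 CPM of Smad6 against 587 CPM in the Y-only KO cells outside the cluster, a ratio of 0.153 (0.0615 to 0.318), and 103 against 652 CPM of Smad7, a ratio of 0.158 (0.0680 to 0.313). Their Smad1 was at 257 against 72.9 CPM, a ratio of 3.53 (2.06 to 5.78), and 6.52% of all genes were past the fold in that contrast. The 15 cells were 7 aCap-like, 5 gCap-like and 3 arterial-like, whereas 144 of the 224 Y-only cells were gCap-like and 47 aCap-like, so the classes were not matched. The Y-only aCap-like cells, the lower of these classes, had 393 CPM (327 to 470.1) of Smad6 and 387 CPM (321 to 463) of Smad7. Among the 15 Xist-only cells, the 5 gCap-like ones had 698 CPM (280 to 1437) of Smad1, on 7 UMIs. The 7 aCap-like ones had 131 CPM (42.6 to 306) of Smad1, on 5 UMIs. Whether any of the 15 cells belong with the cluster was not tested. Inside the cluster, Xist-only cells had less Smad6 than Y-only cells, at 71.1 against 165 CPM, a ratio of 0.431 (0.250 to 0.727), and 2.27% of all genes were past the fold. Smad1 (ratio 1.24) and Smad7 (ratio 0.861) were short of the fold between the sexes inside the cluster. Set against WT cells of the same type, Xist-only KO endothelial cells had 712 against 57.9 CPM of Smad1 (ratio 12.3), 74.5 against 456 CPM of Smad6 (ratio 0.163) and 88.5 against 643 CPM of Smad7 (ratio 0.138), with 17.3% of all genes past the fold. Y-only KO endothelial cells outside the cluster had no Smad past the fold over WT endothelial cells (0 of 6, against 4.90% of all genes), with ratios of 1.28 for Smad1, 1.28 for Smad6 and 1.01 for Smad7. WT had no Y-only endothelial cells, so that last contrast crosses the sexes.

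**Figure D4:**
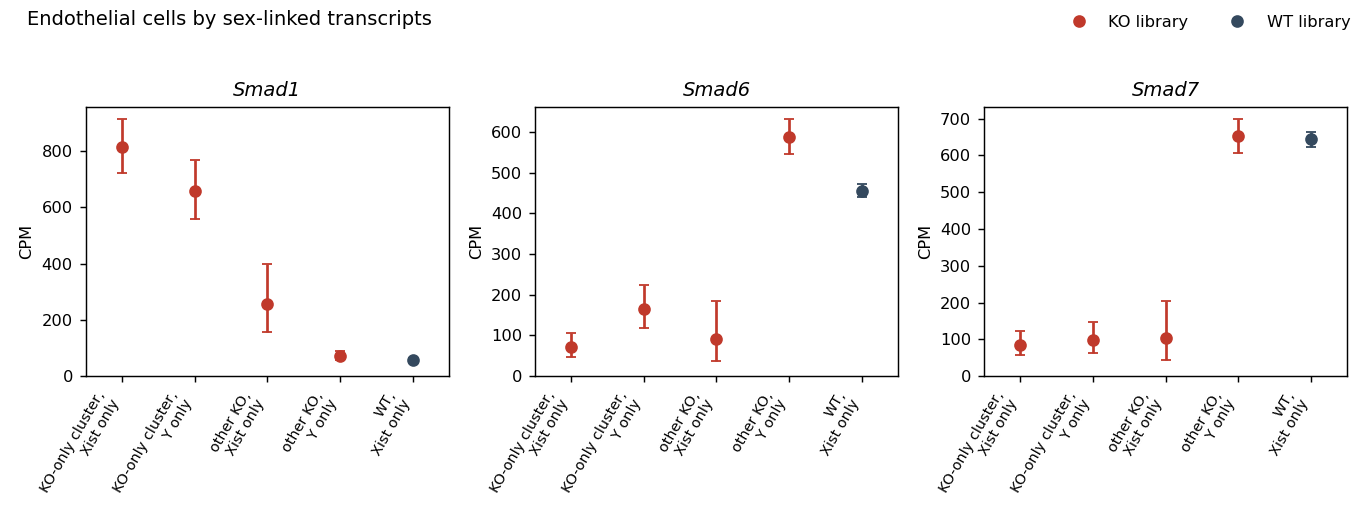
Smad1, Smad6 and Smad7 (CPM, exact Poisson 95% intervals) in endothelial cells with Xist alone or Y-linked transcripts alone, inside and outside the KO-only cluster, in KO (red) and WT (dark blue). Y-only KO cells outside the cluster lie near WT, with Smad7 at 652 and 643 CPM, whereas the other KO points are low for Smad6 and Smad7 and high for Smad1.

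In AT2-like and fibroblast-like cells no Smad was past the fold between the sexes, a count near that given by the share over all genes. Between the 84 Xist-only and 397 Y-only KO AT2-like cells, Smad1 was at 31.0 and 32.1 CPM, a ratio of 0.966 (0.706 to 1.30), Smad6 at 13.2 and 9.50 CPM, a ratio of 1.39 (0.830 to 2.24), and Smad7 at 29.8 and 28.1 CPM, a ratio of 1.06 (0.768 to 1.44). None of the 7 Smads measured there was past the fold, against 9.20% of all genes. Between 20 Xist-only and 46 Y-only KO fibroblast-like cells, 0 of 7 Smads were past the fold, against 4.31% of all genes. The median log2 ratio there was 0.29 for the Smads and 0.05 for all genes. Sex cannot be told apart from the animals that the cells came from.

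In the capillary classes that both libraries shared, Smad1 in aCap-like cells was past the fold between KO and WT, and Smad6 in the larger of the gCap-like clusters. In all gCap-like cells 0 of 6 Smads were past the fold, against 4.60% of all genes. Smad6 was at 651 CPM in KO, against 466 CPM in WT, a ratio of 1.40 (1.28 to 1.52), which lay above equality by counting error and below the fold. In the larger gCap-like cluster Smad6 was at 590 CPM (543 to 640) in KO and 363 CPM (340 to 387) in WT, a ratio of 1.62 (1.46 to 1.80), past the fold against 4.05% of all genes. In the smaller one, led by Esm1, it was at 926 CPM (803 to 1063) in KO and 699 CPM (652 to 749) in WT, a ratio of 1.33 (1.13 to 1.55). The intervals of these ratios overlapped, and the difference between them was not tested. Over the 144 Y-only KO gCap-like cells Smad6 was at 661 CPM, a ratio over WT of 1.42 (1.28 to 1.57), again not past the fold, which 4.53% of all genes were. Smad7 was at 723 and 760.3 CPM in KO and WT gCap-like cells, a ratio of 0.951 (0.881 to 1.03), and Smad4 at 115 and 129 CPM.

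In aCap-like cells Smad1 alone was past the fold, 1 of 6 Smads against 3.65% of all genes. It was at 86.4 CPM (60.9 to 119) in KO and 37.7 CPM (30.2 to 46.6) in WT, a ratio of 2.29 (1.52 to 3.41), but the 5 KO cells with the most Smad1 UMIs held 51.4% of its 37 UMIs. Over the 47 Y-only KO aCap-like cells it was at 65.0 CPM, a ratio of 1.72 (1.00 to 2.83) with intervals that overlapped, and 3.10% of all genes were past the fold there. Smad6 (360 and 398 CPM) and Smad7 (343 and 393 CPM) had ratios of 0.904 and 0.873 in aCap-like cells. In arterial-like cells both inhibitors were lower in KO than in WT. Smad7 was at 726 CPM in KO and 1203 CPM in WT, a ratio of 0.603 (0.483 to 0.748), and Smad6 at 746 and 1089.9 CPM, a ratio of 0.684 (0.548 to 0.849), just short of the fold. Thus 1 of 6 was past it, against 2.68% of all genes, on 24 KO cells of which 5 held 50.5% of the Smad7 UMIs. The 17 Y-only KO arterial-like cells had 875 CPM (699 to 1081) of Smad6 and 957 CPM (772 to 1172) of Smad7. Both intervals overlapped those of WT arterial-like cells. Over all endothelial cells outside the KO-only cluster Smad1 was at 86.1 CPM in KO and 57.0 CPM in WT, a ratio of 1.51 (1.25 to 1.82), 1 of 6 Smads against 5.21% of all genes. That call sat at the edge of the fold, and leaving out the low-depth endothelial cluster, a choice made after seeing the data, took it away at a log2 ratio of 0.55.

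**Figure D5:**
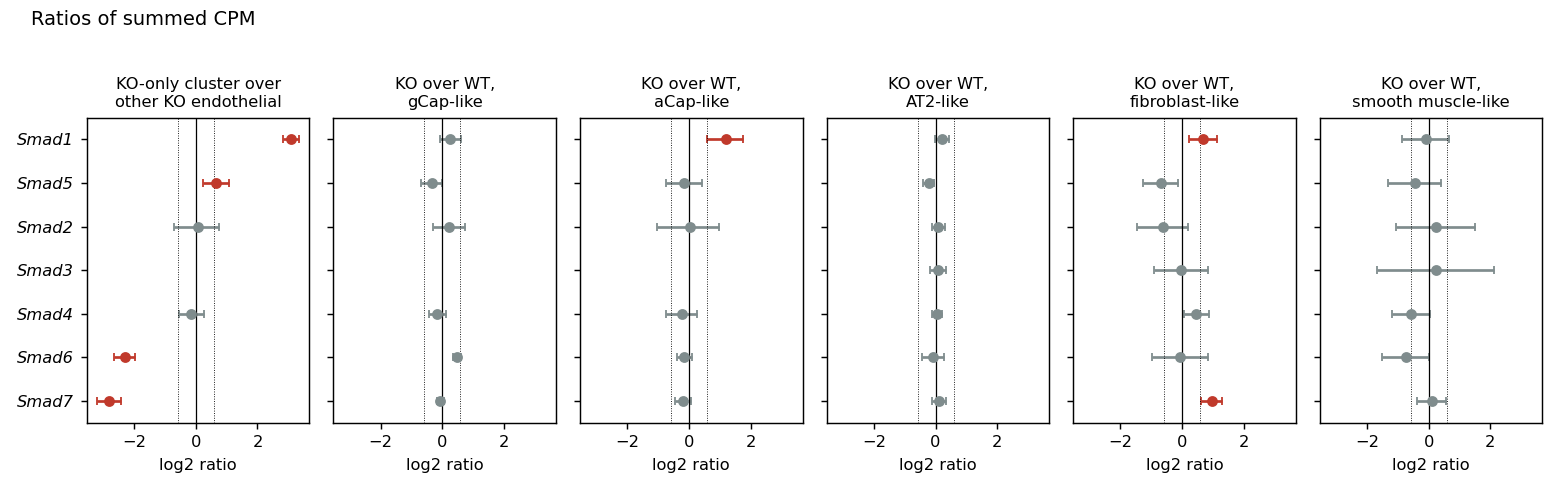
Log2 ratio of summed CPM for each Smad with a mean of at least 10 CPM, with exact conditional binomial 95% intervals: the KO-only cluster over other KO endothelial cells, then KO over WT in 5 classes. Red points are past the fold (ratio of 1.5 with Poisson intervals apart, dotted lines) and grey points are not. Smad1, Smad6 and Smad7 reach 3.10, -2.30 and -2.80 in the first panel, and most other points lie within the dotted lines.

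Outside the endothelium, fibroblast-like cells had more Smad7 in KO, while AT2-like and smooth muscle-like cells had no Smad past the fold. In fibroblast-like cells Smad7 was at 177 CPM (151 to 205) in KO and 91.2 CPM (75.1 to 110) in WT, a ratio of 1.94 (1.52 to 2.48), and Smad1 at 99.4 CPM (80.7 to 121) and 61.9 CPM (48.8 to 77.5), a ratio of 1.61 (1.18 to 2.20). The Smad1 call held in 10 of 13 other ways of processing and that of Smad7 in 12 of 13. These were 2 of 7 Smads, against 9.82% of all genes, whose median log2 ratio was -0.13. The Smad7 difference was widest in alveolar fibroblast-like cells, at 458 CPM in 34 KO cells and 159 CPM in 59 WT cells, a ratio of 2.88 (2.11 to 3.96), past the fold with 8.01% of all genes. In adventitial fibroblast-like cells it was at 89.1 and 55.0 CPM, a ratio of 1.62 (1.09 to 2.43) with intervals that overlapped, and Smad4 was past the fold there at 119.7 and 73.8 CPM, a ratio of 1.62 (1.16 to 2.29), with 6.37% of all genes. Over WT, both Y-only KO fibroblast-like cells (169 CPM, ratio 1.86, 1.41 to 2.43) and Xist-only ones (219 CPM, ratio 2.40, 1.68 to 3.39) had more Smad7, past the fold with 9.91% and 6.87% of all genes. In the 34 KO alveolar fibroblast-like cells 5 held 47.7% of the Smad7 UMIs. AT2 markers made up 1848 CPM of the KO and 28232 CPM of the WT alveolar fibroblast-like sum, and their part in the Smad7 ratio was not tested.

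AT2-like cells were the most deeply counted class. None of 7 Smads was past the fold, against 4.26% of all genes, with ratios from 0.857 (0.761 to 0.964) for Smad5 to 1.16 (0.997 to 1.34) for Smad1. Smad5 was at 43.1 CPM in KO and 50.3 CPM in WT AT2-like cells, and Smad3 at 20.7 and 19.5 CPM, a ratio of 1.07 (0.889 to 1.28). In smooth muscle-like cells 0 of 7 were past the fold, against 5.79% of all genes. The lowest ratio there was that of Smad6, at 43.5 CPM in KO and 72.6 CPM in WT, 0.598 (0.350 to 0.998), and with 24 and 47 UMIs the Poisson intervals overlapped.

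The receptors and modulators around the Smads were followed through 5 lists of the pathway, in the KO-only cluster against the other KO endothelial cells. Of all genes 7.78% were higher and 8.01% lower past the fold. Of 13 receptors 10 were measured, 3 higher and 3 lower past the fold, with a median log2 ratio of 0.29 against -0.05 for all genes. Lower were those of the endothelial BMP complex, Acvrl1 at 414 against 1281 CPM, Bmpr2 at 591 against 1878 CPM and the co-receptor Eng at 514 against 1350.1 CPM. Higher were Tgfbr3, the TGF-beta co-receptor betaglycan, at 207 against 94.8 CPM, Tgfbr2, the type II TGF-beta receptor, at 169 against 91.2 CPM, and the activin receptor Acvr2a at 73.4 against 39.8 CPM. Of 12 ligands 5 were measured and 3 were higher: Bmp4 at 298 against 36.2 CPM, Tgfb2 at 217 against 29.6 CPM and the activin subunit Inhbb at 61.5 against 22.9 CPM (list median 1.42). Among Y-only KO cells alone, 2 of 10 receptors were higher and 3 lower, against 6.90% and 6.39% of all genes. Of 6 ligands there 3 were higher and 1 lower. Among Xist-only KO cells alone, 0 of 10 receptors were higher and 1 lower, against 1.80% and 2.86% of all genes, and 1 of 5 ligands was higher.

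All 21 regulators of Smad activity were measured, 2 higher and 3 lower (median -0.10). Lower were the co-repressor Skil at 52.5 against 209 CPM, the ubiquitin ligase Smurf2 at 88.4 against 256 CPM and the Smad-binding repressor Zeb2 at 77.9 against 153 CPM. Higher were the co-repressor Tgif1 at 28.5 against 10.2 CPM and the phosphatase Ctdspl at 168 against 70.8 CPM. Of 12 genes known as BMP-Smad targets 8 were measured, 0 higher and 6 lower (median -1.86). Id1 was at 34.5 against 848 CPM and Id3 at 48.0 against 995 CPM, both inhibitors of differentiation, and Stc1, a secreted glycoprotein, at 4.50 against 45.9 CPM, on 3 UMIs in the cluster, a ratio of 0.0980 (0.0198 to 0.296). Of 8 genes known as TGF-beta-Smad targets 7 were measured, 3 higher and 1 lower (median -0.31): the matrix genes Tgfbi at 199 against 4.08 CPM and Col4a1 at 7265 against 2014 CPM and the matricellular Ctgf at 1102 against 167 CPM were higher, and Fn1 at 13.5 against 46.9 CPM was lower. The clustering was done without these genes, but not without genes that vary with them. Among Y-only KO cells, the cluster had 6 of 8 BMP-Smad targets lower (median -1.69), against 6.39% of all genes. Among Xist-only KO cells it had 1 higher and 2 lower of 6 (median -0.73), against 1.80% and 2.86%. Outside the cluster, Xist-only cells had 4 of 8 lower than Y-only cells (median -2.64), against 2.85% of all genes. Low BMP-Smad targets were thus not particular to the cluster.

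In gCap-like cells few members of 4 of these lists were past the fold between KO and WT, and 2 of 4 measured TGF-beta-Smad targets were, where 1.66% of all genes were higher and 2.95% lower past the fold. The list medians were -0.12 for receptors, 0.01 for ligands, -0.02 for regulators, -0.05 for BMP-Smad targets and 0.85 for TGF-beta-Smad targets, against -0.02 for all genes. Of the receptors 0 were higher and 1, Tgfbr3, lower at 72.4 CPM in KO and 112 CPM in WT, a ratio of 0.645, of 10 measured. Acvrl1, Bmpr2 and Eng had ratios of 0.976, 0.898 and 1.24. Of the ligands 1 of 4 was past the fold, Bmp4, lower at 35.8 and 57.2 CPM, and of the regulators 1 of 20, the ubiquitin ligase Stub1, lower at 74.1 and 112 CPM. Of the BMP-Smad targets 2 of 8 were past it, Id2 lower at 75.7 and 146 CPM and Stc1 higher at 60.7 and 36.0 CPM, while Id1 (875 and 666 CPM) and Id3 (1033 and 1223 CPM) were not. Of the TGF-beta-Smad targets 2 of 4 were past it, Ctgf higher at 124 and 56.6 CPM and Fn1 higher at 54.1 and 15.6 CPM.

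Across the 22 sums of a class in a library, Smad6 and Smad7 followed each other, with a Pearson r of 0.81 on log2(CPM + 10), while Smad1 followed neither (0.19 with Smad6 and 0.08 with Smad7). These sums share libraries, so the values are a description. Among 7210 genes, those most like Smad6 were Arl15 (0.94), Bmpr2 (0.93) and Card10 (0.93). Those most like Smad7 were Id1 (0.88), Cpd (0.86) and Lifr (0.85). The pattern of Smad1 was closest to Sesn1 (0.80), Prr5 (0.77) and Litaf (0.76), all of which were also highest in the KO-only cluster. Smad4 was closest to Pttg1ip (0.91), Scoc (0.89) and Tns2 (0.89), and Smad5 to Zc3h7b, Patz1 and Ctbp1 (each 0.80 or 0.81).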

How the data were processed

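Per the labels' protocols, lungs were dissociated with dispase and DNase, and libraries were made with the 10x Genomics 3' v3 kit. The matrices hold raw UMI counts as deposited. The submitters' processing notes name Cell Ranger 3.0.1 and the mm10 build. No source used here states whether reads were counted by strand. Smad5 and Smad4 overlap annotated genes (3 short RNAs and 1 antisense pseudogene) that the files do not list, so their reads could not be separated by locus. Coordinates are from GENCODE M21 (GRCm38).

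Filters of 500 or more detected genes and no more than 10% mitochondrial UMIs passed 1326 KO and 2745 WT cells (30.5% and 15.1% of barcodes exceeded the mitochondrial limit). From these, 11 and 16 cells called doublets by Scrublet (0.830% and 0.583%) were removed. With scanpy 1.11.5 and leidenalg 0.10.2, 2000 variable genes less 20 Smad and pathway genes gave 30 principal components, a graph of 20 neighbors and Leiden clusters at resolution 1. A second round left out 595 genes differing 1.5-fold between libraries within a class and used 1385, giving 19 clusters, of which 5 under 20 cells (51 cells) were not classed.

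Clusters were named from 140 marker genes: 3 markers had to be in 10% or more of a cluster's cells and at 2-fold the other clusters' median, with more of its own markers than of another class among the top 10 genes. This scoring rule was set after the clusters had been seen. A KO-only cluster has at least 90% KO cells and 50 cells. UMIs were summed per class and library, as CPM with exact Poisson 95% intervals, and ratios carry exact conditional binomial intervals. The contrast was checked on simulated counts. Shares used cells thinned to 1500 UMIs, with exact Clopper-Pearson intervals.

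The 8 Smads, the pathway lists (66 genes) and the comparisons were chosen with earlier results of these data known. Named genes were all Smads, the 3 list members with the largest ratio each way, and Acvrl1, Bmpr2, Eng, Id1 and Id3. Tagln, Lyve1, Mmrn1, Reln, Prox1, Myh11 and Foxj1 were named after their values were seen. So were the general endothelial markers Pecam1, Cdh5, Emcn, Esam, Calcrl and Tek. Genes like a Smad were the 3 with the highest r among genes reaching 50 CPM, for Smads reaching 50 CPM; those of Smad2 are not reported here. Processing was varied in 12 listed ways, and in 1 more chosen after seeing the data.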

Additional observations from a re-analysis of the deposited data

How the results depend on the processing

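Over the alternatives that gave a value, no ratio of a Smad past the fold changed its direction. In the KO-only cluster over other KO endothelial cells, the calls of Smad1, Smad6 and Smad7 held in all 12, with log2 ratios of 2.99 to 3.34, -2.70 to -2.0 and -3.19 to -2.73, while that of Smad5 held in 8 of 12. Between Xist-only and Y-only KO endothelial cells the calls of Smad1, Smad6 and Smad7 held in all 13. At Leiden resolution 0.5 the cells of the KO-only cluster were grouped with WT cells and no KO-only cluster formed. Comparisons that need it have no value there, and the cluster thus depends on the resolution. The count of Smads past the fold moved to or from 0 as follows. It was 1 in gCap-like cells at resolution 1.5 (Smad6, log2 ratio 0.64) and 1 in AT2-like cells when CPM was averaged over cells (Smad6, 0.73). It was 0 in aCap-like cells, and 0 in endothelial cells outside the KO-only cluster, both with cells thinned to 1500 UMIs and without the 5 cells with the most UMIs. In endothelial cells outside the KO-only cluster it was also 0 under a joint filter of 1000 genes and 5% mitochondrial UMIs, with doublets kept, and without the low-depth endothelial cluster. It was 0 in fibroblast-like cells thinned to 1500 UMIs, where the log2 ratios were 1.18 for Smad7 and 0.85 for Smad1 with wider intervals. Over all 13, Smad5 in fibroblast-like cells ranged from -0.94 to 0.70 and was past the fold, lower, in 2. Smad4 in those cells stayed short of a call in 12 of 13. The cause of these changes was not tested. No paired analysis was possible because each group has 1 library. Counts limit Smad9 and Smad3 in endothelium, and KO arterial-like, venous-like and leukocyte-like cells.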

Other observations

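In WT leukocyte-like cells, 9 of 82 had Y-linked transcripts alone and 5 had Xist alone, although no WT endothelial cell was Y-only. Smad6 stood at 79.8 CPM (46.5 to 128) in those 82 cells, on 17 UMIs, and at 0 UMIs in the 25 KO leukocyte-like cells, which allows up to 61.2 CPM by the limit of 3 counts and 75.2 CPM by the Poisson interval.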
